A study of Mus musculus with 24 samples.

Results

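The genes described are parts of the contractile filaments: the myosin light chains Myl1, Mylpf, Myl2, Myl3 and Myl4, the light chain kinase Mylk2, and the tropomyosins Tpm1, Tpm2 and Tpm3. They were taken by their mouse symbols and are 9 of the 47643 genes in the deposited count table. All 9 were found under a single Ensembl ID each. The samples were plantaris muscles, a fast muscle of the lower hindlimb, from wild-type C57BL/6 mice. One group of 11 samples came from mice kept in normal air, and the other group of 13 samples came from mice that breathed tobacco smoke for 16 weeks. Both groups had the same strain and genotype, and the ages and the number of animals behind the samples were not given in the sources used here. RNA was read from the 3′ end of each transcript (Lexogen QuantSeq 3′ FWD, on an Illumina HiSeq instrument), so that a count stands for a transcript end and is not divided by transcript length.

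A muscle myosin head carries an essential and a regulatory light chain on its lever arm. Fast fibres use the products of Myl1 and Mylpf for these places, slow fibres and the heart ventricle use those of Myl3 and Myl2, and Myl4 is known from embryonic muscle and the heart atrium. Mylk2 encodes the skeletal muscle kinase that phosphorylates the regulatory light chain. Tropomyosins are coiled coils that lie along the actin filament and, with the troponins, govern its access to myosin. Tpm1 encodes the alpha form of fast fibres, Tpm2 the beta form and Tpm3 the slow form.

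Promoter sequence was available from RefSeq (GRCm38.p6) for 8 of the 9 genes. A window of 250 bases upstream of each listed start was searched on both strands for CAGCTG, an E-box of the kind that myogenic factors are known to bind, and for the CArG box, the known site of serum response factor. CAGCTG was found in the windows of Myl1, Mylpf, Tpm2 and Tpm3 (the upstream of its 2 listed starts) and of 1 of the 2 starts of Myl2, while 4271 of 32851 listed promoters held it. CAGCTG is itself one form of the general E-box CANNTG, which 66.2% of the promoters held. Of the 8 genes, Myl3 held a CArG box, as did 1.47% of all promoters. The windows were also searched for TATAAA and the MEF2 site. TATAAA was found in the windows of Myl1 and of 1 of the 2 starts of Myl2, and in 12.4% of all promoters. None of the windows held a MEF2 site, against 2.92% of all promoters. Both starts listed for Myl2 lay at least 7762 bases from its nearest annotated coding transcript start, so its windows are not shown. The 3 printed below belong to the main fast regulatory light chain, the slow essential light chain and the slow tropomyosin, because the values of these genes are compared with their fast partners. Capitals mark CAGCTG in the sequences of Mylpf and Tpm3 and the CArG box in that of Myl3, and a match is a match of letters only. The Myl3 window is cut at its end where an annotated transcript begins.
Mylpf, chr7:127211358-127211607, plus strand: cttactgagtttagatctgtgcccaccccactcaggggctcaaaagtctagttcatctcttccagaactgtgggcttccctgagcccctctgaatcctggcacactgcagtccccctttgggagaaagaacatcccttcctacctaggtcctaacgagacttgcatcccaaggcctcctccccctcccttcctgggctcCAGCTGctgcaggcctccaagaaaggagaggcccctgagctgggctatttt
Myl3, chr9:110763428-110763645, plus strand: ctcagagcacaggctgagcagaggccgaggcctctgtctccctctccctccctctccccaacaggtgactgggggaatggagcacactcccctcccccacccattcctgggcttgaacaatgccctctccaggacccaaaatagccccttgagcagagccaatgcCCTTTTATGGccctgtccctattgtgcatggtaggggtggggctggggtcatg
Tpm3, chr3:90072401-90072650, plus strand: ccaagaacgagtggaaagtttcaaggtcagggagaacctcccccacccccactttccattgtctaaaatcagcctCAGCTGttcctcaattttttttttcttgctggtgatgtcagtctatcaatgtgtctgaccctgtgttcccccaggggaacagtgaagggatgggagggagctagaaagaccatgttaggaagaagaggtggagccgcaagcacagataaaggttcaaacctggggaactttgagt

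Total counts ran from 2515697 to 4528845 per sample, so that 3 counts, the lowest level taken as detected, correspond to 0.662 to 1.19 CPM, which are counts scaled to a common library total. These limits and the counting errors below cover counting error only. Levels are given as CPM on libraries scaled by the trimmed mean of M-values (TMM). Smoke was compared with air by the edgeR quasi-likelihood test with Benjamini-Hochberg adjustment over all 10159 genes tested, with 0.05 as the threshold of the adjusted p for a call. The labels do not say that each sample came from a separate animal, so p-values measure the spread between these samples. The data are of whole muscle, in which fewer fibres of a type and less RNA per fibre cannot be told apart. Among the marker lists, the 8 slow fibre genes summed to 341 to 750 CPM in air and 360 to 808 CPM in smoke, and the 10 fast fibre genes to 145509 to 227417 CPM and 153579 to 193790 CPM. The fast fibre markers were therefore by far the more abundant in every sample.

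None of the 9 genes was called between smoke and air, although all 9 passed the filter on low counts. In the same comparison 195 genes, or 1.92% of those tested, were called, 0.728% of all tested genes higher and 1.19% lower under smoke. DESeq2 and limma voom also called none of the 9. At an unadjusted p under 0.05 there were 4, namely Myl2, Myl3, Myl4 and Tpm2, all with a lower mean under smoke, as against 1575 of the 10159 genes tested. That count was 2 to 5 when 1 sample was left out, and it was 2 without any 1 of air 8, air 11, smoke 3, smoke 8 and smoke 9. The median log2 fold change was -0.11 over the 9 genes, with 8 below 0, and 0.0066 over all genes tested, with 48.4% below 0. Those 8 include Tpm3 (-0.00022) and Myl1 (-0.019), which lay close to 0 and changed sign in some alternative fits. The ranges of the air and smoke samples overlapped for each of the 9.

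**Figure D1:**
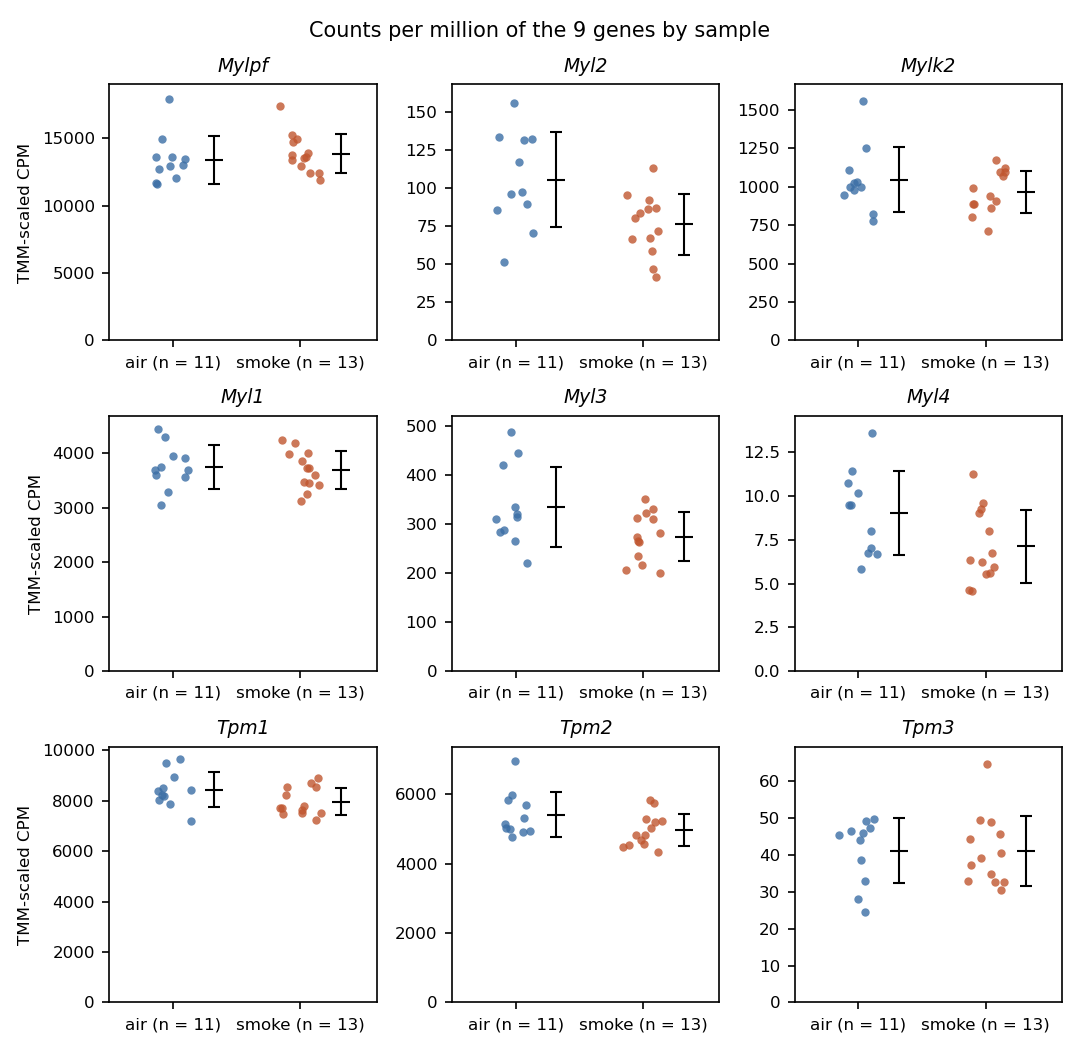
TMM-scaled CPM of each of the 9 genes on linear axes from 0, with 1 point per sample (11 air, 13 smoke) and, beside them, the mean as a bar with its SD. The points of the groups overlap in every panel, and for Myl2 5 air samples lie above the highest smoke sample at 113 CPM.

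The regulatory light chains were present at very unequal levels. Mylpf, the fast form, had 11623 CPM in the lowest air sample, a median of 13005 and 17935 in the highest, and under smoke it had 11878, 13601 and 17398 CPM. These ranges nearly coincided, and the highest sample of each group (air 11 and smoke 10) stood above the rest. The log2 fold change was 0.046 with a standard error (SE) of 0.063, an adjusted p of 0.791 and a 95% interval from -0.082 to 0.17, and between 32348 and 65840 reads stood behind each value. Leaving out 1 sample moved the log2 fold change of Mylpf between 0.014 (without smoke 10) and 0.093 (without air 11), with adjusted p of at least 0.425 by edgeR.

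Myl2, the slow and ventricular regulatory light chain, was the member with the lowest adjusted p. It had 51.6, 97.6 and 156 CPM in the lowest, median and highest air samples and 41.9, 80.7 and 113 CPM in those of smoke. Of the air samples 5 lay above all smoke samples, 2 smoke samples lay below all air samples, and 12 of the 13 smoke samples were under the air mean. The means were 106 ± 31.4 CPM (SD, n = 11) and 76.4 ± 20.001 CPM (SD, n = 13), a log2 fold change of -0.46 with an SE of 0.14 and a 95% interval from -0.75 to -0.17, or -27.5% on the linear scale. The edgeR quasi-likelihood test gave an unadjusted p of 0.00251 and an adjusted p of 0.0784, so that Myl2 did not pass the threshold.

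The call of Myl2 depended on single samples and on the setting. Its log2 fold change was below 0 in all 35 alternative fits, and 6 of them called it. Air 11, the air sample with the lowest Myl2 and the highest Mylpf, moved the log2 fold change most: without that sample it was -0.54 and the adjusted p 0.0168. Without air 3, the air sample with the highest Myl2, it moved almost as far the other way, to -0.39, with an edgeR adjusted p of 0.169. The adjusted p was 0.0493 without air 10 and 0.0431 without smoke 11, and over all fits that left out 1 sample it ran from 0.0168 to 0.169. It was 0.0132 with no filter on low counts and 0.0435 with 1 surrogate variable, and 0.112 with DESeq2 and 0.114 with limma voom. Counting error was small beside the spread: the coefficient of variation of Myl2 was 29.7% in air and 26.2% in smoke, where the numbers of reads alone would give 5.2% and 6.1%.

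Within samples, Myl2 made up 0.799% ± 0.260 (SD, n = 11; range 0.287 to 1.15) of the summed counts of Myl2 and Mylpf in air. Under smoke the share was 0.552% ± 0.160 (SD, n = 13; range 0.312 to 0.943). The share needs no scaling between libraries, and the groups overlapped on it as well. Since the counts are not divided by length, it is a share of transcript ends.

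Mylk2, the kinase of the regulatory light chain, had 776, 1001 and 1558 CPM in the lowest, median and highest air samples and 711, 936 and 1176 CPM under smoke. The air sample at 1558 was again air 11, and 1 smoke sample lay below all air samples. The log2 fold change was -0.11 (SE 0.086, 95% interval from -0.29 to 0.061, edgeR adjusted p = 0.570), and it was -0.045 without air 11.

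Of the essential light chains too, the fast gene gave more counts than the slow one. Myl1, the fast form, had 3055, 3691 and 4442 CPM in the lowest, median and highest air samples and 3124, 3725 and 4252 CPM under smoke. The groups lay over each other, with 3747 ± 398 CPM (SD, n = 11) in air and 3698 ± 352 CPM (SD, n = 13) in smoke. The log2 fold change was -0.019 (SE 0.058, 95% interval from -0.14 to 0.098, edgeR adjusted p = 0.921). Myl1 has coding transcripts with 2 separate starts and a shared end, so this assay counts its 2 forms together.

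Myl3, the slow essential light chain whose promoter window holds the CArG box, had 221, 315 and 487 CPM in air and 199.5, 275 and 350.4 CPM under smoke. In each direction 3 samples stood outside the other group, 3 air samples above all smoke samples and 3 smoke samples below all air samples, and 12 of 13 smoke samples were under the air mean. The means were 336 ± 81.6 CPM (SD, n = 11) and 275 ± 49.4 CPM (SD, n = 13). The log2 fold change was -0.29 with an SE of 0.10 and a 95% interval from -0.50 to -0.075, or -18.1% on the linear scale, and the unadjusted and adjusted p of the edgeR quasi-likelihood test were 0.00943 and 0.150. Myl3 took 8.26% ± 2.00 (SD, n = 11; range 5.56 to 11.7) of the summed counts of Myl3 and Myl1 in air and 6.99% ± 1.51 (SD, n = 13; range 4.73 to 9.16) under smoke.

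Myl4 was the least abundant of the 9 genes. It had 5.84, 9.44 and 13.6 CPM in the lowest, median and highest air samples and 4.59, 6.33 and 11.3 CPM under smoke, all above the 3-count limit. Of the smoke samples 4 lay below all air samples and 9 of 13 lay under the air mean of 9.00 ± 2.38 CPM (SD, n = 11), against 7.13 ± 2.08 CPM (SD, n = 13) in smoke. The log2 fold change was -0.34 (SE 0.16, 95% interval from -0.66 to -0.013), with an adjusted p of 0.294 by edgeR. Only 17 to 39 reads stood behind each value, and counting alone would give coefficients of variation of 18.0% in air and 20.5% in smoke, where 26.5% and 29.2% were seen. The 5 heart markers, which include the atrial light chain Myl7, summed to between 0.315 and 2.78 CPM in air and between 0.384 and 4.46 CPM in smoke, and Nppb among them was at 0 in every sample. Of the 4 markers of embryonic or regenerating fibres 3 were tested and none was called, with sums of 11.1 to 20.3 CPM in air and 11.3 to 20.9 CPM in smoke.

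**Figure D2:**
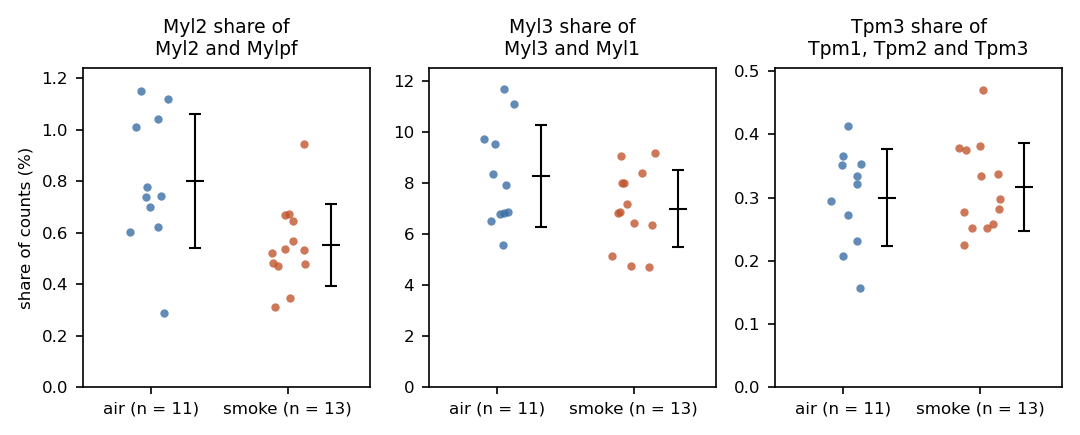
Share of counts (%) in each sample taken by the gene of the slow form: Myl2 of Myl2 and Mylpf, Myl3 of Myl3 and Myl1, and Tpm3 of Tpm1, Tpm2 and Tpm3, with the mean and SD beside the points of 11 air and 13 smoke samples. The mean share was 0.799% in air and 0.552% in smoke for Myl2, 8.26% and 6.99% for Myl3, and 0.300% and 0.317% for Tpm3, with overlapping points in each panel; the Tpm3 count sums over all forms of the gene.

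Of the tropomyosins, Tpm1 gave the most counts and Tpm3 the fewest. Tpm1, the alpha form, had 7204, 8388 and 9637 CPM in the lowest, median and highest air samples and 7253, 7724 and 8899 CPM under smoke. The groups overlapped through most of their range. The log2 fold change was -0.085 (SE 0.049, 95% interval from -0.18 to 0.014, edgeR adjusted p = 0.422). The coding transcripts of Tpm1 have 3 separate 3′ ends and 4 starts, and the count sums over all of them.

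Tpm2, the beta form, had 4760, 5133 and 6963 CPM in air and 4341, 4839 and 5827 CPM under smoke. The air maximum was air 11, 5 smoke samples lay below all air samples, and 11 of 13 smoke samples were under the air mean. The means were 5413 ± 654 CPM (SD, n = 11) and 4968 ± 472 CPM (SD, n = 13), a log2 fold change of -0.12 with an SE of 0.059 and a 95% interval from -0.24 to -0.0033, with an unadjusted p of 0.0444 and an adjusted p of 0.303 by edgeR. Without air 11 it was -0.086. Tpm2 held 38.9% ± 1.90 (SD, n = 11) of the tropomyosin counts in air and 38.3% ± 2.49 (SD, n = 13) in smoke.

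Tpm3, the gene of the slow form, had 24.4, 45.3 and 49.7 CPM in the lowest, median and highest air samples and 30.6, 39.2 and 64.8 CPM under smoke. The smoke maximum, smoke 1, lay above all other samples, and 2 air samples lay below all smoke samples. The means were 41.2 ± 8.82 CPM (SD, n = 11) and 41.1 ± 9.59 CPM (SD, n = 13), and the log2 fold change was -0.00022 (SE 0.12, edgeR adjusted p = 1.00). The 95% interval from -0.24 to 0.24 still covers a change of up to 18.1% upwards or -15.3% downwards. Tpm3 took 0.300% ± 0.0766 (SD, n = 11; range 0.158 to 0.414) of the summed counts of Tpm1, Tpm2 and Tpm3 in air and 0.317% ± 0.0701 (SD, n = 13; range 0.226 to 0.470) in smoke.

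The coding transcripts of Tpm3 have 3 separate starts and 2 separate 3′ ends, and its count sums over all of them, so it is not the level of the slow form alone. The level of Tpm3 is also uncertain because a near-copy of the gene was counted beside it. The last 500 bases of the Tpm3 transcripts match Tpm3-rs7 at 98.6% identity over 502 aligned bases, and the treatment of reads that fit both places is not given in the sources used here. Tpm3-rs7 had 30.1 ± 6.49 CPM (SD, n = 11) in air and 37.4 ± 10.5 CPM (SD, n = 13) in smoke, for which the difference on the log2 scale was 0.31 (SE 0.12, edgeR adjusted p = 0.195). Counted together, Tpm3 and Tpm3-rs7 gave a log2 fold change of 0.14 with an edgeR adjusted p of 0.541, and 0.516% ± 0.108 of the tropomyosin counts in air (SD, n = 11) and 0.604% ± 0.117 in smoke (SD, n = 13). Myl1 has a pseudogene, Mylf-ps, of 99.2% identity over 358 bases, which is not among the counted genes. Myl2, Myl3 and Myl4 overlap other genes on the opposite strand, and whether strand was used in counting is not given in the sources used here.

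**Figure D3:**
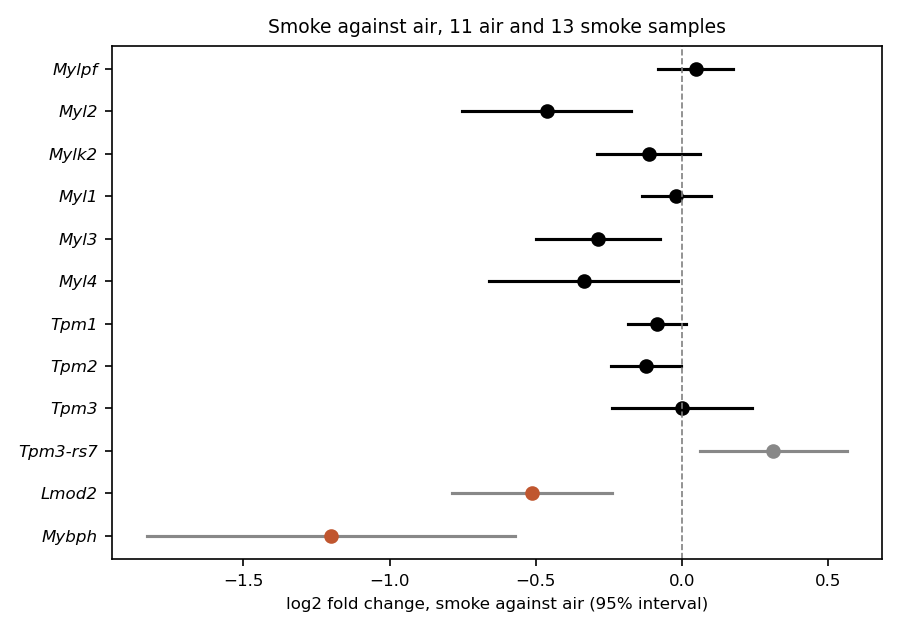
Log2 fold change, smoke against air, with its 95% interval for the 9 genes (black) and for Tpm3-rs7, Lmod2 and Mybph (grey lines), from the fit on 11 air and 13 smoke samples; orange points mark an adjusted p under 0.05. The intervals of Myl2, Myl3, Myl4 and Tpm2 lie below 0 without reaching that threshold, and those of Lmod2 and Mybph are the called ones.

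In a list of 43 other genes of the filaments and their regulation, 37 were tested, none was called higher and 2 fell under smoke. The median log2 fold change of the 37 was -0.025, with 21 below 0. The genes that fell were Lmod2, which lengthens thin filaments at their pointed ends, and Mybph, a myosin-binding protein. Lmod2 had 33.7, 79.5 and 118 CPM in the lowest, median and highest air samples and 36.3, 50.4 and 73.1 CPM under smoke, with all 13 smoke samples under the air mean. It fell by 0.51 on the log2 scale (SE 0.13, edgeR adjusted p = 0.0359). Mybph had 1.59, 7.27 and 25.8 CPM in air and 1.85, 3.82 and 13.1 CPM under smoke, and its log2 fold change was -1.20 (SE 0.31, edgeR adjusted p = 0.0325). The groups overlapped for both genes, and both adjusted p lay close to the threshold. Over the fits that left out 1 sample the log2 fold change ran from -0.59 to -0.43 for Lmod2 and from -1.46 to -0.94 for Mybph. The call of Lmod2 ended without any 1 of air 3, 4, 5, 6, 7 and 10 and smoke 3, 5, 6, 7, 8 and 12, and that of Mybph without any 1 of air 1 and 7 and smoke 6, 9 and 12, with adjusted p up to 0.0861 and 0.0894. Both calls also ended with limma voom (adjusted p 0.0711 for Lmod2 and 0.104 for Mybph) and with the replicate number as a block (0.136 and 0.0702). The block fit left out smoke 12 and 13, which share no number with an air sample.

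The other light chains gave no call among 5 of 7 tested, with a median log2 fold change of -0.14. Myl6, the essential light chain of non-muscle and smooth muscle myosin, had 149.5 ± 24.4 CPM (SD, n = 11) in air and 132 ± 16.4 CPM (SD, n = 13) in smoke (log2 fold change -0.18, edgeR adjusted p = 0.228). Myl9, the smooth muscle regulatory light chain, had 45.3 ± 8.35 and 48.1 ± 9.28 CPM. The 9 of 10 tested kinases, calmodulins and phosphatase subunits gave no call either (median log2 fold change 0.11). The calmodulin gene Calm3 had the lowest adjusted p among them, 0.111 with a log2 fold change of 0.22. The phosphatase subunit Ppp1r12b had a log2 fold change of -0.17 with an edgeR adjusted p of 0.126.

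Among the other thin filament genes 8 of 9 were tested and Lmod2 was the gene called. Tpm4, a cytoskeletal tropomyosin, had 10.6 ± 2.22 CPM (SD, n = 11) in air and 8.20 ± 1.52 CPM (SD, n = 13) in smoke, with all 13 smoke samples under the air mean but an edgeR adjusted p of 0.127. Of the 9 heavy chains and binding proteins Mybph was the one called. Myh2, the heavy chain of fast oxidative fibres, had 4002 ± 533 CPM (SD, n = 11) in air and 3328 ± 546 CPM (SD, n = 13) in smoke (log2 fold change -0.27, SE 0.077, edgeR adjusted p = 0.0627), and Myh4, that of the fastest fibres, 39487 ± 6367 and 44099 ± 4080 CPM (log2 fold change 0.16, edgeR adjusted p = 0.228). Without air 11 there were 5 calls in the list, with Myh2, Myh4 and Ppp1r12b beside Lmod2 and Mybph, and DESeq2 and limma voom called Myh2 on all samples. Myh2 was also called without smoke 10, smoke 11 or smoke 13, and Ppp1r12b without smoke 11. With 1 surrogate variable Calm3, Ppp1r12b and Myh2 were called beside Lmod2 and Mybph. The slow heavy chain Myh7 had 12.7 ± 6.17 CPM (SD, n = 11) and 13.8 ± 9.80 CPM (SD, n = 13), with a log2 fold change of 0.15 (SE 0.30) and an adjusted p of 0.875 by edgeR. Of the troponins 6 of 8 were tested and none was called, and the slow Tnnt1 had a log2 fold change of 0.016 with an edgeR adjusted p of 0.986.

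The slow markers thus gave values on both sides of 0 in the same samples where Myl2 and Myl3 had lower means. None of the 8 slow fibre markers was called, and their log2 fold changes ran from -0.35 (Atp2a2, the slow calcium pump) to 0.59 (Tnnc1, the slow troponin C) with a median of 0.025. Tnnc1 was sparse, with 4 to 64 reads in smoke and an SE of 0.37. Its median was 4.58 CPM in air and 3.82 CPM in smoke, and 7 of 13 smoke samples lay under its air mean. None of the 10 fast fibre markers was called. Of the 6 smooth muscle markers 4 were tested and none was called, with sums of 100.5 to 162 CPM in air and 97.6 to 181 CPM in smoke. Other cell types did move with the groups: 3 of 5 blood markers fell under smoke, with sums of 486 to 1444 CPM in air and 369 to 883 CPM in smoke, and 3 of 4 myelin markers rose, with sums of 102 to 208 CPM and 148 to 827 CPM. Their part in the values of Myl2, Myl3, Myl4 and Tpm2 was not tested.

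Relations between genes were examined within each group on log2 CPM, 14 by test and 4 more, chosen after their values were seen, as a description with no p. Of the 14, none passed after Benjamini-Hochberg adjustment over all of them, by Pearson's r or Spearman's rho, with 2 at an unadjusted permutation p under 0.05 by r and 1 by rho. The 4 described are those of Tpm3 with the slow heavy chain Myh7 and of Myl2 with Myh2, the fast oxidative heavy chain. Tpm3 and Myh7 had r = 0.83 (rho = 0.57) over 11 air samples and r = 0.71 (rho = 0.59) over 13 smoke samples, and with the 2 samples most remote from the Tpm3 median removed r was 0.76 and 0.53. In air the 3 samples with the lowest Myh7 (air 5, 7 and 10) were also the 3 lowest in Tpm3, while in smoke the 3 lowest in Myh7 (smoke 4, 8 and 9) and the 3 lowest in Tpm3 (smoke 7, 9 and 11) shared only smoke 9. Smoke 8 nearly tied with smoke 7 in Tpm3, at 32.87 and 32.82 CPM, so this cut at 3 samples is not sharp. Myl2 and Myh2 had r = 0.65 (rho = 0.47) in air and 0.70 (rho = 0.63) in smoke. With the 2 samples most remote from the Myl2 median removed these became 0.14 and 0.65, and without air 11 alone r in air was 0.41, so in air the relation rested on those samples.

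In air the relations of Myl2 with Myh7 and with Tpm3 turned on air 11, the air sample with the lowest Myl2. With Myh7 the r of Myl2 was 0.39 in air (permutation p = 0.239, adjusted 0.484; rho = 0.54, permutation p = 0.0922, adjusted 0.258), but 0.75 without air 11 (permutation p = 0.0142, adjusted 0.0996) and 0.71 with the 2 samples most remote from the Myl2 median removed. In smoke it was -0.17 (permutation p = 0.582, adjusted 0.709; rho = -0.066, permutation p = 0.836, adjusted 0.900) and 0.40 with 2 such samples removed. With Tpm3 the r of Myl2 was 0.43 in air (permutation p = 0.179, adjusted 0.484; rho = 0.55, permutation p = 0.0881, adjusted 0.258), 0.76 without air 11 (permutation p = 0.0100, adjusted 0.0996) and 0.81 with 2 samples removed. In smoke it was -0.29 (permutation p = 0.332, adjusted 0.549; rho = -0.42, permutation p = 0.156, adjusted 0.312) and 0.071 with 2 removed. When 1 smoke sample was left out, this r ran from -0.55 to -0.15.

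**Figure D4:**
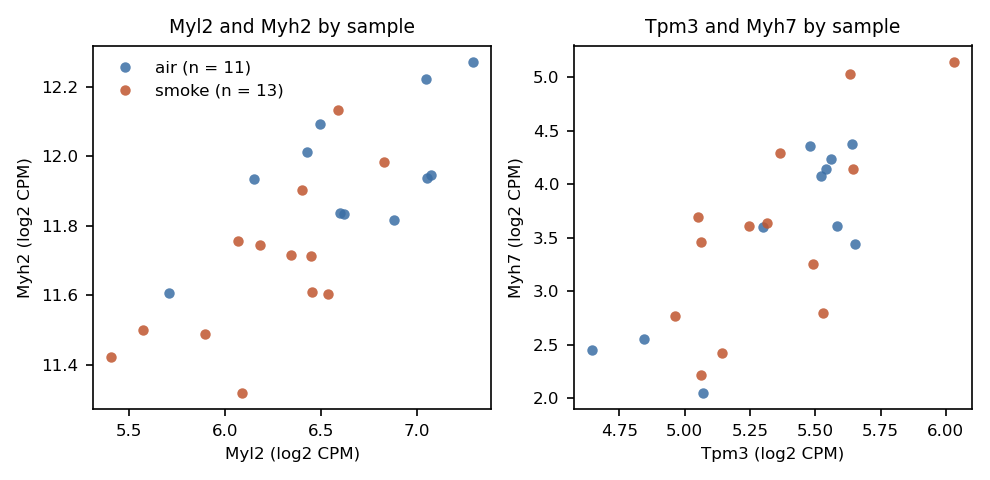
Log2 CPM of Myl2 against Myh2 and of Tpm3 against Myh7, with 1 point per sample for 11 air and 13 smoke samples. Pearson's r was 0.65 in air and 0.70 in smoke for the first pair and 0.83 and 0.71 for the second, in which smoke 1 has the highest Tpm3.

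Myl2 and Myl3 had r = 0.54 in air (permutation p = 0.0861, adjusted 0.301; rho = 0.73, permutation p = 0.0140, adjusted 0.196) and 0.28 in smoke (permutation p = 0.353, adjusted 0.549; rho = 0.37, permutation p = 0.209, adjusted 0.366), or 0.66 and 0.47 with the 2 samples most remote from the Myl2 median removed, and in air it was 0.58 without air 11. Mylpf and the kinase Mylk2 had r = 0.74 in air (permutation p = 0.0137, adjusted 0.0963; rho = 0.55, permutation p = 0.0823, adjusted 0.258), but 0.43 with the 2 samples most remote from the Mylpf median removed and 0.39 without air 11 alone. In smoke r was 0.35 (permutation p = 0.242, adjusted 0.484; rho = 0.29, permutation p = 0.333, adjusted 0.518), and 0.15 with 2 removed. Tpm1 and Tpm2 had r = 0.72 in air (permutation p = 0.0138, adjusted 0.0963; rho = 0.61, permutation p = 0.0512, adjusted 0.258) and 0.41 with 2 removed, against 0.17 in smoke (permutation p = 0.573, adjusted 0.709; rho = 0.12, permutation p = 0.696, adjusted 0.812) and -0.091 with 2 removed. Myl3 and Tpm1 had r = -0.54 in air (permutation p = 0.0836, adjusted 0.301; rho = -0.46, permutation p = 0.156, adjusted 0.312) and -0.65 with 2 removed, and r = 0.051 in smoke (permutation p = 0.867, adjusted 0.867; rho = 0.16, permutation p = 0.589, adjusted 0.750) and 0.21 with 2 removed. The partners Mylpf and Myl1, the fast regulatory and essential chains, had r = 0.17 in air (permutation p = 0.608, adjusted 0.709; rho = 0.30, permutation p = 0.372, adjusted 0.521) and -0.093 in smoke (permutation p = 0.764, adjusted 0.822; rho = -0.0055, permutation p = 0.993, adjusted 0.993), or -0.069 and -0.23 with 2 removed. Whether air and smoke differ in any of these relations was not tested.

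The genes most like 3 of the members were ranked by Spearman's rho of the deviations from the group means over all 24 samples, as a description of samples that share depth and scaling. Near to Mylpf were the ribosomal protein genes Rpl12 (0.86), Rpl23 (0.85) and Rpl13a (0.82) and the tubulin gene Tuba4a (0.82). Air 11 and smoke 10, which held the highest Mylpf of their groups, also held the highest Rpl23 and Rpl13a, while Rpl12 and Tuba4a were highest in air 2 and air 3 and, under smoke, in smoke 10. Without both samples the log2 fold change of Mylpf was 0.065, and Myl2 was called at -0.54 with an edgeR adjusted p of 0.0213. Nearest to Myl2 were Qrsl1 (0.74), Tstd3 (0.74), Gm42508 (0.70), Hspb7 (0.68) and Fbh1 (0.66). Hspb7, a small heat shock protein of heart and skeletal muscle, fell under smoke (log2 fold change -0.57, edgeR adjusted p = 0.0048), while Qrsl1 had a log2 fold change of 0.0086. Nearest to Tpm3 were Cdc25b (0.71), Adck2 (0.71), Psen2 (0.70), the slow troponin gene Tnni1 (0.70) and Pak1 (0.70), of which Cdc25b, Adck2 and Tnni1 were sparse, with group means between 2.64 and 6.28 CPM. Among the 9 genes the closest pair by this measure was Tpm1 and Mylpf (0.62), followed by Myl2 and Myl3 (0.53), and the lowest value was that of Myl1 and Myl2 (-0.33).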

How the data were processed

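Whole-number read counts of Ensembl genes in 24 plantaris samples were deposited by the authors. Per the submitters' processing notes, STAR, DESeq2 and the build mm9 were used, with no role or version given, and the counting tool, annotation, strand setting and treatment of reads that fit several places are not given in the sources used here. Groups came from the sample titles. In the file headers the samples of each group follow each other, so position in the sample sheet and group cannot be told apart.

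Symbols came from GENCODE M21, which held 47224 of the IDs (99.1%), and gene coordinates were left out because the builds differ. Counts were fitted with edgeR 4.0.16 in R 4.3.3 (filterByExpr with a minimum count of 10, TMM, glmQLFit, glmQLFTest) with the group as the only term and all samples, and CPM values were computed here. Relations used log2 CPM with a prior count of 2 and 100000 permutations, two-sided. The 14 relations tested were adjusted together, and 4 chosen after their values were seen got no test. The fit was tested on simulated data. The genes named were the 9 members, called genes of the pathway list, the 5 genes nearest to Myl2, Mylpf and Tpm3, and genes of the marker lists, and the other pathway genes were named after their values were seen. One gene that this rule names is not reported here. The members and lists were chosen with earlier results of these data known. Alternatives were DESeq2 1.42.0, voom of limma 3.58.1, scaling by RLE or the upper quartile, other filters, 1 surrogate variable (sva 3.50.0), scaling without the 10 most abundant genes, a replicate block and leaving out each sample. Counting Tpm3 with its copy, and leaving out air 11 and smoke 10, were chosen after seeing the data.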

Additional observations from a re-analysis of the deposited data

How the results depend on the processing

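Over all genes tested 195 were called, against 323 with DESeq2 (121 higher, 202 lower), 441 with 1 surrogate variable (211 higher, 230 lower) and 141 to 254 when 1 sample was left out. The count of members called was 0, and it was 1, Myl2 each time, with no filter on low counts, with 1 surrogate variable and without air 11 and smoke 10, and 0 to 1 when 1 sample was left out. The count of pathway genes called was 2, against 3 with DESeq2 and with no filter, 1 with limma voom (Myh2), 5 with 1 surrogate variable, 4 without air 11 and smoke 10, and 0 to 5 when 1 sample was left out. The sign changed for Tpm3, from a log2 fold change of -0.00022 to 0.00052 with upper-quartile scaling, 0.0036 with voom, 0.0074 with 1 surrogate variable, 1.6e-05 with scaling without the 10 most abundant genes, 0.016 without air 11 and smoke 10 and 0.14 with its copy. It also changed for Myl1, to 4.1e-05 with the replicate block. When 1 sample was left out, Tpm3 ran from -0.073 to 0.032 and Myl1 from -0.048 to 0.0046. In smoke, r then ran from -0.31 to 0.076 for Myl2 and Myh7, from -0.20 to 0.27 for Myl3 and Tpm1, from -0.32 to 0.047 for Mylpf and Myl1, and from -0.097 to 0.39 for Tpm1 and Tpm2. None of the 14 relations tested passed an adjusted p of 0.05 with RLE scaling, on linear CPM or without any 1 sample. The causes of these shifts were not tested. With pooled counts, the median or any 1 sample left out, the shares of Myl2, Myl3 and Tpm3 moved by less than the spread between samples, but with its copy counted the Tpm3 share moved by more than that, from 0.300% to 0.516% in air and from 0.317% to 0.604% in smoke. Same-numbered samples of the groups did not deviate together (mean r -0.0059 over 11 pairs, -0.28 to 0.14). The mean over the 132 other pairs was 0.0011. Means near 0 cannot show that the numbers carry no pairing. The replicate block was fitted without smoke 12 and 13, which share no number with an air sample. With it 138 genes were called, 0 members and 0 pathway genes. For Myl2 it gave a log2 fold change of -0.48 and an edgeR adjusted p of 0.155. The effect of the block cannot be told apart from the loss of these samples. Depth limits Myl4, at 17 to 39 reads, where counting error makes up much of the spread. The called gene Mybph was also thinly counted, at 6 to 94 reads in air and 6 to 41 in smoke. For Mybph, counting alone would give coefficients of variation of 17.0% and 26.3%, where 69.3% and 66.9% were seen.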
